A study of Saccharomyces cerevisiae with 6 samples.

Results

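The pheromone G protein and MAP kinase cascade was followed through 10 genes of Saccharomyces cerevisiae, chosen by their systematic names among the 5917 rows of the deposited table, and all 10 had a row. They were GPA1, STE4 and STE18, which encode the alpha, beta and gamma subunits of the G protein, STE5 for the scaffold, STE11, STE7, FUS3 and KSS1 for the kinases, STE12 for the transcription factor and FAR1 for the inhibitor of the cell cycle. Log-phase cultures in synthetic defined medium at 30 °C received either 20 uM edelfosine, a synthetic lysophosphatidylcholine analogue, or 0.095% ethanol as the vehicle, for 60 minutes in both cases. The treatment labels give no ethanol content for the edelfosine cultures. Each treatment had 3 biological replicates, W303 cells for numbers 1 and 2 and BY4741 cells for number 3. The strain therefore cannot be told apart from any batch of replicate 3, and the labels name no added pheromone in either group. Values are TPM, a transcript level per length with the same total in every library, so the read depth is unknown and no counting interval can be given.

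In a haploid budding yeast cell, mating pheromone from the opposite mating type binds a receptor that is coupled to this G protein. Gpa1 then lets go of the Ste4-Ste18 dimer, which gathers Ste5 and its kinases at the plasma membrane. Ste11 phosphorylates Ste7, Ste7 phosphorylates the MAP kinases Fus3 and Kss1, and these act on Ste12, which switches on mating genes, and on Far1, which halts the cell cycle in G1. Ste11 also serves the osmotic stress pathway of Hog1, and Ste11, Ste7, Kss1 and Ste12 serve filamentous growth. Fus3 and Far1 are used for mating.

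The Ste12 binding sequence known as the pheromone response element, TGAAACA, was looked for on both strands in the 300 bases from 250 before the start codon to 50 into the coding sequence. Of 6001 such windows in the RefSeq genome R64, 450 held it (7.5%), and of the 10 cascade genes STE18, STE7 and FUS3 did. The match of FUS3 lay 156 to 150 bases before the start codon and that of STE18, on the opposite strand, 117 to 111 bases before it. That of STE7 lay in the coding sequence itself, at bases 2 to 8. The windows of FUS3 and STE18 are shown because they hold the element upstream of the gene, and those of STE4 and FAR1 because these genes had the 2 largest fitted falls. They lie at chrII:192201-192500, chrX:585818-586117 and chrXV:742660-742959 on the plus strand, and chrX:126279-126578 on the minus strand, in that order. They are written 5′ to 3′ along the gene, and capitals mark the element on either strand.
FUS3: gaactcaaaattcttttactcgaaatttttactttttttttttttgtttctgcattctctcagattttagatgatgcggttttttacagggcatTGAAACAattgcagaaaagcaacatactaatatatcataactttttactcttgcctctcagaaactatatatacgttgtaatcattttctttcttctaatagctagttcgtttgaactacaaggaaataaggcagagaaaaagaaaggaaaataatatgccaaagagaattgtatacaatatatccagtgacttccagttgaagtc
STE18: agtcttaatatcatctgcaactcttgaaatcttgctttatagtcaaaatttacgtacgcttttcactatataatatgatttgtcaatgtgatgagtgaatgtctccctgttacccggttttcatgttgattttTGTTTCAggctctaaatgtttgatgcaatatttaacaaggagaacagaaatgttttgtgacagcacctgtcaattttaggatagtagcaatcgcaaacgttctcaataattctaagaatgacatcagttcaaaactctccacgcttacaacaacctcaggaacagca
STE4: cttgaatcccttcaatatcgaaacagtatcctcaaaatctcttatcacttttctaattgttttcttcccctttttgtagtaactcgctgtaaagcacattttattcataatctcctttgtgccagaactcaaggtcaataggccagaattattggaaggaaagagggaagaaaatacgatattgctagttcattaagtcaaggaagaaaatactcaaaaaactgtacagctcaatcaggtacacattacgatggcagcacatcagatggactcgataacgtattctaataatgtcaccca
FAR1: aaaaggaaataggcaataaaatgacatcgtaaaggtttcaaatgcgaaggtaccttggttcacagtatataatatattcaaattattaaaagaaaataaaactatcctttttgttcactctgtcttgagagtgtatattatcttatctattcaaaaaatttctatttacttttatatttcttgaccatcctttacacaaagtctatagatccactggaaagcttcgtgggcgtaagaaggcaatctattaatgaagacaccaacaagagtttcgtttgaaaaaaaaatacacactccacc
The stress response element AGGGG, bound by the general stress factors Msn2 and Msn4, was present on either strand in 1297 of the 6001 windows (21.6%) and in those of STE4, at 184 to 180 bases before the start codon, and STE5, at bases 32 to 36 of the coding sequence. The letters of an element in a window are a description and do not show a site in use. Variant letters and sites further upstream were not looked for, so a window without a match does not show that a gene lacks a site.

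After edelfosine, the cascade changed in both directions. FAR1, STE4, KSS1, STE12, GPA1 and FUS3 fell, the upstream kinase genes STE11 and STE7 rose, and STE18 and STE5 did not pass the test. The test was limma on log2(scaled TPM + 1), with strain and treatment as terms and Benjamini-Hochberg adjustment over the 5707 genes tested, all 10 cascade genes among them. An adjusted p under 0.05 was called. Of all tested genes 54.6% were called, 27.3% higher and 27.3% lower, so that 2 of 10 higher stood below that background share and 6 of 10 lower above it. The median log2 change of the 10 genes was -0.59, beside 0.0088 for all tested genes. Scaling set that level: with TPM as deposited the median gene rose by 0.55 and the cascade median was -0.0012. On that scale STE11, STE7, STE18 and STE5 were called higher (background 49.7%) and STE4 and FAR1 lower (background 13.3%). The treatment groups did not overlap for 2 genes higher and 5 lower in scaled TPM (30.3% and 31.3% of all tested genes), and for 4 higher and 2 lower as deposited (53.5% and 14.3%). Thus STE4, FAR1, STE11 and STE7 kept their direction and call on both scales, and the falls of GPA1, FUS3, KSS1 and STE12 are relative to the median gene. Less RNA per cell and fewer cells expressing a gene cannot be told apart in these cultures.

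**Figure D1:**
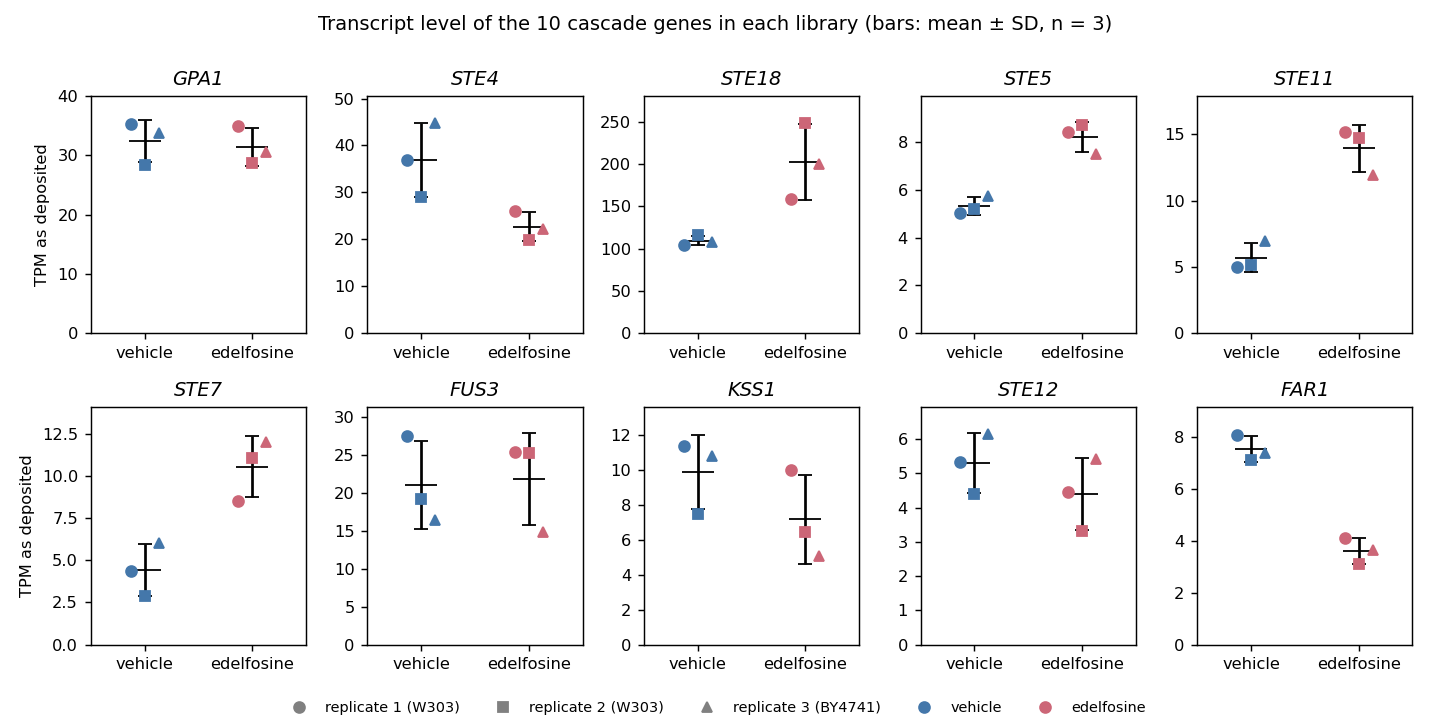
Deposited TPM of each of the 10 cascade genes (vertical axes, each from 0) in the vehicle and edelfosine libraries; points are libraries, with the marker giving replicate and strain, and bars are mean ± SD with n = 3. STE4 and FAR1 are lower and STE18, STE5, STE11 and STE7 higher in every edelfosine library than in any vehicle library, while GPA1, FUS3, KSS1 and STE12 overlap.

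The G protein subunits did not move together. GPA1 (YHR005C; R64 chromosome VIII, 113499 to 114917, minus strand) encodes the alpha subunit, which holds the dimer inactive until the receptor acts. Its TPM was 35.2, 28.4 and 33.7 in vehicle replicates 1, 2 and 3 and 34.9, 28.6 and 30.6 in the matching edelfosine replicates. The groups overlapped as deposited, and each pair held nearly the same value in W303. On the scaled values GPA1 went from 39.9 ± 2.26 to 25.4 ± 2.54 (mean ± SD, n = 3 each), a log2 change of -0.64 ± 0.15 (SE; adjusted p = 0.0123, limma). With TPM as deposited the change was -0.05 ± 0.19 (adjusted p = 0.842). The scaled call did not survive leaving out vehicle replicate 1 (adjusted p = 0.0601), vehicle replicate 2 (0.0512) or edelfosine replicate 3 (0.0605).

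STE4 (YOR212W; chromosome XV, 742910 to 744181, plus strand) encodes the beta subunit, which carries the signal onward. Its TPM was 36.9, 29.1 and 44.8 in vehicle replicates 1, 2 and 3 and 26.0, 19.8 and 22.3 with edelfosine. Every edelfosine library lay below every vehicle library. Scaled TPM fell from 45.1 ± 4.81 to 18.4 ± 2.51, a log2 change of -1.25 ± 0.16 (adjusted p = 0.00163, limma), or 2.38-fold lower. STE4 was called lower in all 21 alternative settings, with TPM as deposited at -0.67 ± 0.21 (adjusted p = 0.0276).

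STE18 (YJR086W; chromosome X, 586068 to 586400, plus strand) encodes the gamma subunit, a short protein with a lipid anchor. It was the most abundant transcript of the 10 in both groups. Its TPM was 105, 116 and 108 in vehicle replicates 1, 2 and 3 and 159, 248 and 200.2 with edelfosine. All edelfosine libraries were above all vehicle libraries as deposited, and replicate 2 stood highest. With TPM as deposited the log2 change was 0.86 ± 0.21 (adjusted p = 0.00906, limma), against 0.25 ± 0.23 (adjusted p = 0.380) after scaling, where the groups overlapped. STE18 passed in none of the 20 alternatives other than TPM as deposited.

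Plain TPM ratios between 2 transcripts of the same library do not depend on the scaling. The tests used log2(TPM + 1) of the deposited TPM, which depends on the scaling through the pseudocount. The TPM ratio of GPA1 to STE4 was 0.955, 0.974 and 0.753 in vehicle replicates 1, 2 and 3 and 1.34, 1.45 and 1.37 with edelfosine. The alpha subunit transcript was thus below the beta subunit transcript in the vehicle libraries, though only slightly in replicates 1 and 2. It was above the beta subunit transcript in the edelfosine libraries. On the log2(TPM + 1) scale the ratio rose by 0.62, from -0.17 ± 0.20 to 0.45 ± 0.05 (n = 3 each). The ratio of STE18 to STE4 was 2.84, 3.97 and 2.41 with vehicle and 6.10, 12.5 and 8.99 with edelfosine, a difference of 1.52 on the log2 scale. For both ratios the groups did not overlap, and the two-sided exact permutation test gave p = 0.1, the smallest that 3 against 3 allow, and 0.167 when adjusted over the 5 ratios tested. This test cannot reach 0.05 with 3 libraries per group.

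SST2, the GTPase-activating protein that turns Gpa1 off, had a TPM of 5.05, 4.18 and 9.72 with vehicle and 3.70, 3.03 and 4.49 with edelfosine. After scaling it fell by 1.06 on the log2 scale (SE 0.16, adjusted p = 0.00231, limma). With TPM as deposited the change was -0.56 ± 0.21 (adjusted p = 0.0467), and the groups overlapped there. The ratio of SST2 to GPA1 was 0.143, 0.147 and 0.288 with vehicle and 0.106, 0.106 and 0.147 with edelfosine. These groups overlapped (exact permutation p = 0.2, adjusted 0.2).

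The scaffold gene STE5 (YDR103W; chromosome IV, 658350 to 661103, plus strand) followed the median gene. Its TPM was 5.05, 5.20 and 5.76 with vehicle and 8.39, 8.72 and 7.51 with edelfosine, in replicates 1, 2 and 3. The libraries of the treatments were apart as deposited and overlapped after scaling. The log2 change was 0.01 ± 0.14 (adjusted p = 0.958, limma) on scaled values and 0.54 ± 0.18 (adjusted p = 0.0335) on the deposited TPM, beside 0.55 for the median gene.

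STE11 and STE7 rose. STE11 (YLR362W; chromosome XII, 849866 to 852019, plus strand) encodes the first kinase of the cascade, shared with the Hog1 and filamentation pathways. Its TPM was 5.0, 5.13 and 6.99 with vehicle and 15.2, 14.8 and 11.9 with edelfosine, in replicates 1, 2 and 3. The lowest edelfosine library was well above the highest vehicle library, and the BY4741 pair was the closest. Scaled TPM rose from 7.01 ± 0.93 to 11.3 ± 1.19, a log2 change of 0.62 ± 0.16 (adjusted p = 0.0188, limma), and with TPM as deposited the change was 1.16 ± 0.21 (adjusted p = 0.00273). Without vehicle replicate 1 or 2 the scaled call was lost (adjusted p = 0.0839 and 0.0715, limma). The same happened without replicate 1 or 2 of both treatments (log2 change 0.48 and 0.62).

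STE7 (YDL159W; chromosome IV, 172481 to 174028, plus strand) encodes the kinase that activates Fus3 and Kss1. Its TPM was 4.36, 2.89 and 6.02 with vehicle and 8.55, 11.1 and 12 with edelfosine. No edelfosine value fell within the vehicle range. Scaled TPM rose from 5.35 ± 1.36 to 8.57 ± 1.61, a log2 change of 0.60 ± 0.17 (adjusted p = 0.0221, limma), and the change with TPM as deposited was 1.12 ± 0.22 (adjusted p = 0.00363). Leaving out vehicle replicate 1 (adjusted p = 0.0527), 2 (0.101) or 3 (0.0688) or edelfosine replicate 3 (0.0503) ended the scaled call. The ratio of STE5 to STE7 was 1.16, 1.80 and 0.956 with vehicle and 0.981, 0.785 and 0.624 with edelfosine, with overlapping groups (exact permutation p = 0.2, adjusted 0.2).

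Both MAP kinase genes fell relative to the median gene. FUS3 (YBL016W; chromosome II, 192451 to 193512, plus strand) encodes the kinase that drives mating. Its TPM was 27.5, 19.2 and 16.5 with vehicle and 25.4, 25.2 and 14.9 with edelfosine, in replicates 1, 2 and 3. The groups overlapped both as deposited and after scaling, and the BY4741 library was the lowest of each group. Within pairs the scaled log2 change was -0.68, -0.40 and -0.54, and the fitted change was -0.54 ± 0.15 (adjusted p = 0.0210, limma). The sign turned with TPM as deposited, to 0.04 ± 0.21 (adjusted p = 0.861). The scaled call also ended when the strain term was dropped (adjusted p = 0.140) and on leaving out vehicle replicate 1 (0.0911), vehicle replicate 3 (0.0844), edelfosine replicate 2 (0.0505) or edelfosine replicate 3 (0.0986).

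KSS1 (YGR040W; chromosome VII, 575398 to 576504, plus strand) encodes the kinase used in filamentous growth as well as in mating. Its TPM was 11.4, 7.45 and 10.8 with vehicle and 9.97, 6.45 and 5.06 with edelfosine. The value was lower with edelfosine in each of the 3 pairs, although the groups overlapped as deposited. Scaled TPM fell from 12.1 ± 1.64 to 5.77 ± 1.96 with no overlap, a log2 change of -0.98 ± 0.22 (adjusted p = 0.0103, limma). With TPM as deposited the change was -0.44 ± 0.28 (adjusted p = 0.197), and leaving out 1 library ended the scaled call in 3 cases, vehicle replicate 1 (0.0548), vehicle replicate 3 (0.0626) or edelfosine replicate 3 (0.0710). The ratio of FUS3 to KSS1 was 2.42, 2.58 and 1.52 with vehicle and 2.55, 3.91 and 2.94 with edelfosine, so that 1 edelfosine library lay within the vehicle range. On the log2(TPM + 1) scale the difference was 0.48 (exact permutation p = 0.1, adjusted 0.167), with mean ± SD of 1.01 ± 0.39 and 1.49 ± 0.29. The groups were separate on that scale only through the pseudocount; for the plain ratio the exact permutation p was 0.2 (adjusted 0.2).

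FAR1 and STE4 had the 2 largest fitted falls of the 10, within their standard errors of each other. FAR1 (YJL157C; chromosome X, 123836 to 126328, minus strand) encodes the protein that inhibits the G1 cyclin kinase Cdc28 and also guides polarity through Cdc24. Its TPM was 8.07, 7.10 and 7.36 with vehicle and 4.10, 3.08 and 3.63 with edelfosine, in replicates 1, 2 and 3. The groups were far apart compared with the spread inside them. Scaled TPM fell from 9.30 ± 0.90 to 2.92 ± 0.42, or 2.63-fold on the fitted scale, with within-pair log2 changes of -1.32, -1.66 and -1.20 (adjusted p = 0.00109, limma). With TPM as deposited the change was -0.89 ± 0.19 (adjusted p = 0.00485), and FAR1 was called lower in all 20 alternatives in which it was tested.

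STE12 (YHR084W; chromosome VIII, 274174 to 276240, plus strand) encodes the transcription factor at the end of the mating and filamentation branches. Its TPM was 5.32, 4.4 and 6.15 with vehicle and 4.46, 3.32 and 5.41 with edelfosine. Each edelfosine library was below its own vehicle partner, while the groups overlapped. Scaled TPM fell from 6.49 ± 0.38 to 3.57 ± 0.93, a log2 change of -0.73 ± 0.16 (adjusted p = 0.00871, limma). The change was -0.23 ± 0.19 (adjusted p = 0.317) with TPM as deposited. Leaving out replicate 2 of both treatments also ended the scaled call (log2 change -0.60). A pseudocount of 5 in place of 1 moved the changes of FAR1, STE12 and STE7 to -0.85, -0.43 and 0.39, all still called, and made the fall of STE4 (-1.10) larger than that of FAR1.

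**Figure D2:**
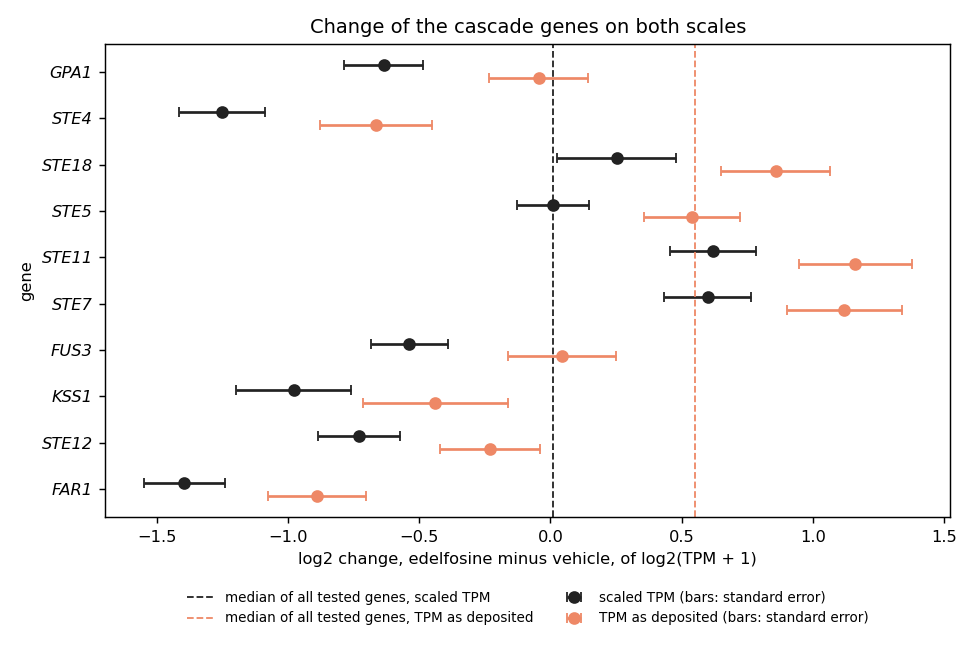
Fitted log2 change (edelfosine minus vehicle, horizontal axis) of each cascade gene on scaled TPM and on TPM as deposited; bars are standard errors and dashed lines the median of all tested genes on each scale. STE4 and FAR1 lie left of 0 and STE11 and STE7 right of 0 on both scales, and STE5 lies on the median line of both.

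The order of the levels changed with these shifts. With vehicle, the mean TPM ran from STE18 (109 ± 5.63) over STE4 (36.9 ± 7.82), GPA1 (32.4 ± 3.6), FUS3 (21.1 ± 5.76), KSS1 (9.88 ± 2.12), FAR1 (7.51 ± 0.50), STE11 (5.71 ± 1.12), STE5 (5.33 ± 0.37) and STE12 (5.29 ± 0.87) to STE7 (4.42 ± 1.57). STE4 and GPA1 overlapped in range, as did KSS1 and FAR1 and each neighbouring pair from STE11 down to STE7. With edelfosine FAR1 was last, at 3.6 ± 0.51, and STE11 (14 ± 1.78) and STE7 (10.6 ± 1.80) stood at ranks 5 and 6, above STE5 (8.21 ± 0.63) and KSS1 (7.16 ± 2.53). Each neighbouring pair from STE4 down to FAR1 overlapped in range there. The TPM of the 10 genes summed to between 225 and 246 in the vehicle libraries and between 296 and 369 in the edelfosine libraries, STE18 being the largest part.

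The 3 same-numbered pairs gave the same direction on scaled values for all genes but STE5, which was higher in pair 1 (0.13) and lower in pairs 2 and 3 (-0.06 and -0.04). The changes of STE11 were 0.91, 0.64 and 0.30 in pairs 1, 2 and 3, and those of KSS1 were -0.71, -0.89 and -1.33. The BY4741 pair thus had the smallest rise of STE11 and the deepest fall of KSS1. A strain by treatment interaction was called for 0 of the 10 genes and for 0 of 5707 genes in all, a background of 0% (limma, 2 residual degrees of freedom). At an unadjusted p under 0.05 it was 0 of 10 and 176 genes (3.08%).

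**Figure D3:**
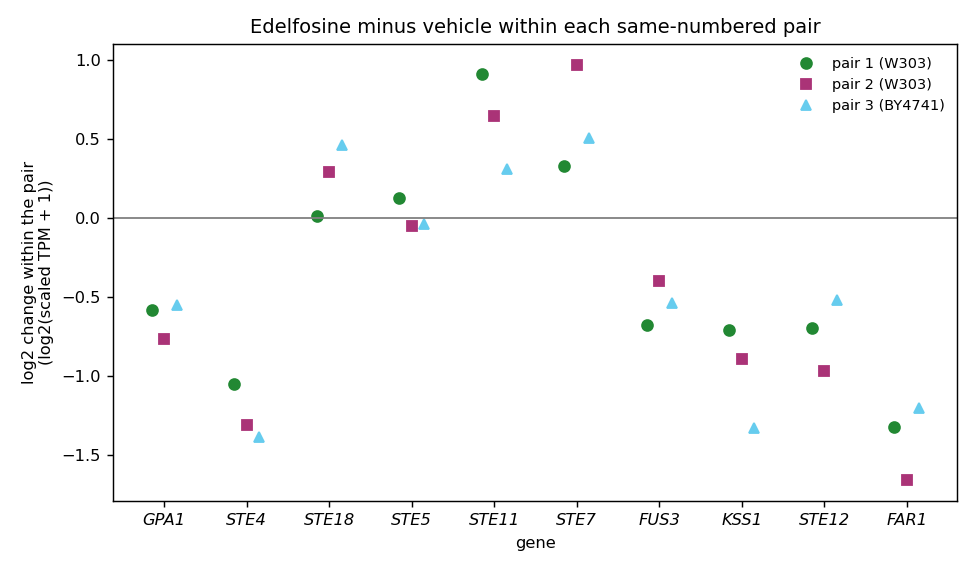
Difference in log2(scaled TPM + 1), edelfosine minus vehicle, within each same-numbered pair (vertical axis) for each cascade gene (horizontal axis); marker and colour give the pair. The 6 genes that fell are below 0 in every pair, STE18, STE11 and STE7 are above 0 in every pair, and STE5 straddles 0.

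Between strains, 0 of the 10 genes were called in either direction, beside 0.421% of all genes (24 of 5707, limma). At an unadjusted p under 0.05 there was 1 of 10, FUS3, beside 11.5% of all genes. FUS3 was lower in BY4741 by a log2 difference of -0.66 ± 0.16 (adjusted p = 0.195), and no other member differed by more than STE7, at 0.40 ± 0.18 (adjusted p = 0.446).

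Among 14 regulators of the cascade 3 rose, 3 fell and 8 were not called (median log2 change -0.13), near the background of 27.3% in each direction. As deposited, 5 were called higher (background 49.7%) and 1 lower (background 13.3%), with a median of 0.39 beside 0.55 for all genes. PTP2, a tyrosine phosphatase of Hog1, rose by 1.16 ± 0.17 (adjusted p = 0.00227, limma), its TPM going from 4.07, 4.30 and 4.72 to 16.3, 20.3 and 13.2 in replicates 1, 2 and 3. TEC1, the partner of Ste12 in filamentation, fell by 1.19 on the log2 scale (SE 0.23; adjusted p = 0.00580), a call lost with TPM as deposited (-0.67; adjusted p = 0.0621). CDC42, the GTPase of polarity, fell by 0.73 after scaling (adjusted p = 0.00774) and not with TPM as deposited (-0.12; adjusted p = 0.522), its TPM being 181 to 191 with vehicle and 154 to 184 with edelfosine. The other rises, named after their values were seen, were those of STE50, the adaptor of Ste11, by 0.64 ± 0.16 (adjusted p = 0.0159) and of DIG1, an inhibitor of Ste12, by 0.52 ± 0.14 (adjusted p = 0.0207).

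DIG1 and STE12 moved apart within every library pair. The TPM ratio of DIG1 to STE12, picked after the values were seen and not tested, was 3.17, 2.85 and 3.38 with vehicle and 8.04, 10.4 and 7.21 with edelfosine. The ratio of STE7 to FUS3, picked in the same way, was 0.158, 0.15 and 0.366 with vehicle and 0.336, 0.440 and 0.808 with edelfosine. It was higher with edelfosine in each pair, while vehicle replicate 3 lay above edelfosine replicate 1.

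**Figure D4:**
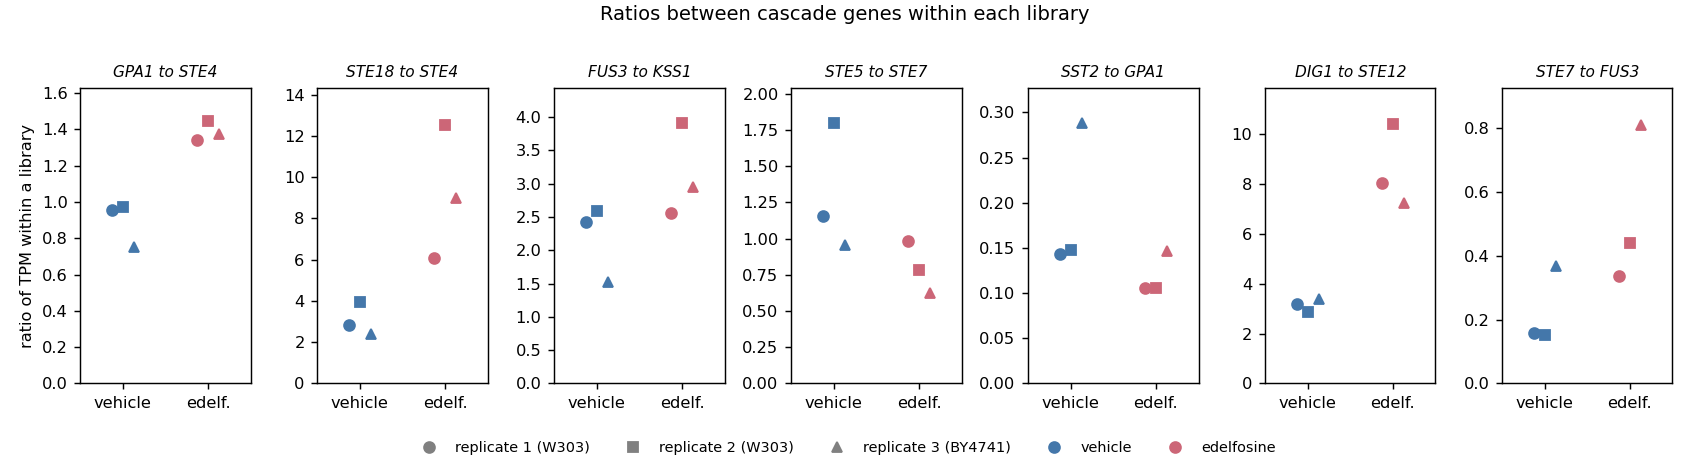
Ratio of the TPM of 2 genes within a library (vertical axes, each from 0) for 7 gene pairs; points are libraries, with the marker giving replicate and strain. GPA1 to STE4, STE18 to STE4 and DIG1 to STE12 are higher in every edelfosine library than in any vehicle library, and the other 4 ratios overlap.

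Of 14 listed genes that Ste12 switches on in mating 10 were tested, 0 rose and 2 fell, beside 27.3% of all genes in each direction. Targets of Ste12 placed in the cascade or in the other lists were not counted here. The falls were those of PRM5 by 0.81 (SE 0.17; adjusted p = 0.00875, limma) and CIK1 by 0.58 (SE 0.17; adjusted p = 0.0265). Neither passed with TPM as deposited (adjusted p = 0.303 and 0.719), where 3 of the 10 were called higher (background 49.7%). CIK1 was also lost without vehicle replicate 1 or 2 (0.104 and 0.10), and PRM5 without vehicle replicate 2 (0.0504). FUS1, a membrane protein of cell fusion, was at 1.66, 1.47 and 2.34 TPM with vehicle and 3.69, 3.88 and 2.33 with edelfosine, a log2 change of 0.17 ± 0.18 (adjusted p = 0.448) after scaling and of 0.60 (adjusted p = 0.0473) with TPM as deposited, where it was called higher. FUS2, FIG1, FIG2 and PRM6 did not reach 1 TPM in 3 libraries. FUS1 was chosen after its values were seen.

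All 5 genes of the pheromone and receptor list fell, beside 27.3% of all genes. The receptor gene STE2 went from 139, 114 and 155 to 19.4, 15 and 43.1 TPM in replicates 1, 2 and 3. The a-factor genes MFA1 and MFA2 changed by -1.97 ± 0.18 and -3.68 ± 0.34, the a-factor exporter gene STE6 by -2.15 ± 0.17 and the pheromone protease gene BAR1 by -2.45 ± 0.20 (adjusted p from 0.000424 to 0.000672, limma). These 5 were also called lower with TPM as deposited (background 13.3%). Of 6 genes for lipid modification of Gpa1, Ste18 and a-factor, 3 fell and 0 rose (background 27.3% each). The falls were RCE1 (-1.22 ± 0.15; adjusted p = 0.00129) and STE14 (-0.95 ± 0.14; adjusted p = 0.00243), which process prenylated proteins, and RAM1 (-0.48 ± 0.17; adjusted p = 0.0484), a subunit of farnesyltransferase. With TPM as deposited RCE1 passed (-0.67; adjusted p = 0.0200), STE14 did not (-0.36; adjusted p = 0.0914) and RAM1 turned to 0.09 (adjusted p = 0.718), while STE24, a protease that processes a-factor, was called higher (0.90; adjusted p = 0.0211; named after its values were seen). Of the fits without 1 library, RAM1 was called only in the one without edelfosine replicate 2, its adjusted p being 0.149, 0.154, 0.0924, 0.0835 and 0.0918 when vehicle replicate 1, 2, 3 or edelfosine replicate 1, 3 was left out, in that order.

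Of 9 genes of the Hog1 and filamentation pathways 2 rose and 3 fell, near the background of 27.3% in each direction. Not all 9 belong to the branch through Ste11, as SSK1, SSK2 and SSK22 do not. As deposited, 3 were called higher (background 49.7%) and 0 lower. Among the 3 was SSK1 (1.06, adjusted p = 0.0152, limma), named after its values were seen. OPY2, a membrane anchor for Ste50, rose by 1.29 ± 0.20 (adjusted p = 0.00257, limma), from 22.8, 13.5 and 22.4 to 66.4, 83.3 and 69.2 TPM. PBS2, the Hog1-activating kinase, rose by 0.50 ± 0.16 (adjusted p = 0.0378), a call lost without any one library other than edelfosine replicate 2 (adjusted p from 0.0601 to 0.144). The osmosensor genes SHO1 and MSB2 fell by 1.13 and 0.82 (adjusted p = 0.00582 and 0.00487), and neither passed with TPM as deposited (0.10 and 0.135). Among 7 genes for the kinase Cdc28, its cyclins and its inhibitor Sic1, only the G1 cyclin gene CLN1 was called, beside 54.6% of all genes. CLN1 was lower by 1.11 (SE 0.21, adjusted p = 0.00549, limma) and did not pass with TPM as deposited (adjusted p = 0.111). On that scale 3 of the 7 were called higher (background 49.7%), CDC28 (0.61; adjusted p = 0.0240), CLN3 (0.73; 0.0492) and SIC1 (1.06; 0.0150), and 0 lower. CDC28, CLN3 and SIC1 are named after their values were seen. CLN2 was at -0.50 ± 0.26 (adjusted p = 0.145).

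Several cascade genes are haploid-specific. Among 4 other such genes 1 was called, beside 54.6% of all genes. It was HO, the mating-type switching endonuclease gene, which fell by 3.16 (SE 0.29, adjusted p = 0.000685, limma). RME1, NEJ1 and AXL1 had changes of 0.40 ± 0.26, -0.24 ± 0.19 and -0.04 ± 0.14 and were not called on scaled values. RME1 was called higher with TPM as deposited (1.00; adjusted p = 0.00807). The a-factor genes MFA1 and MFA2 lay at 703 and 568 TPM or more in every library, and MF(ALPHA)1 of the opposite mating type at or below 3.02 TPM. Other mating-type markers were less far apart after edelfosine. In edelfosine replicate 2 the alpha-specific gene MF(ALPHA)2 (18.6 TPM) lay above the a-specific gene STE2 (15 TPM). It lay below STE2 in edelfosine replicates 1 and 3. Within every edelfosine library SAG1 (3.21 to 4.62 TPM) lay above STE6 (2.14 to 4.17 TPM), and STE3 (1.84 to 2.27 TPM) below STE6. AFB1 (11.2 to 11.5 TPM) lay above BAR1 (2.42 to 6.26 TPM) in all edelfosine libraries. These pairs were picked after the values were seen. Of the alpha-specific list 4 genes were tested and 0 called on scaled values (background 54.6%). As deposited 3 were called higher (background 49.7%) and 0 lower (background 13.3%). The strain markers were as labelled, LEU2 lying at or below 0.0868 TPM in both BY4741 libraries and at 101 TPM or more in W303.

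**Figure D5:**
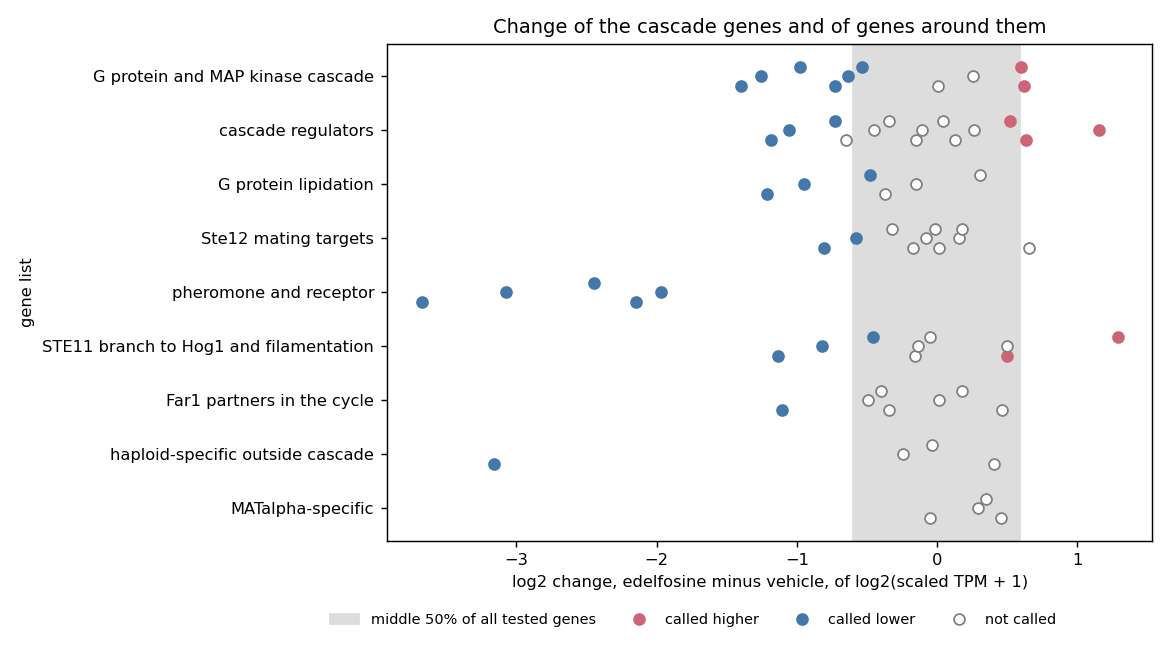
Log2 change on scaled TPM (horizontal axis) of each tested gene of the cascade and of 8 lists of genes around it (rows); filled points were called higher or lower, open points were not called, and the grey band holds the middle 50% of all tested genes (-0.60 to 0.59). The 5 pheromone and receptor genes lie between -3.68 and -1.97, left of every cascade gene.

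FAR1 was the cascade gene of smallest adjusted p. Outside the cascade and the 8 lists, the genes with values over the 6 libraries nearest to those of FAR1 were EHT1, SUI3 and YPQ2. Their distances were 0.125, 0.178 and 0.203 (Euclidean distance between mean-centred log2 values). Cascade and listed genes were left out of this ranking.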

How the data were processed

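RNA of 6 cultures was measured by sequencing of poly(A) RNA. The authors deposited 1 table of TPM, with a total of 1000000 in every library. Kallisto and sleuth are named, without versions, per the submitters' processing notes; no source used here gives the transcript set or the build. Of 5917 rows 5911 matched a locus tag of R64 (RefSeq), which gave names, coordinates and upstream windows. No cascade gene overlapped another annotated gene, and none of its words of 31 bases occurred in another coding sequence.

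A gene was tested if it reached 1 TPM in 3 or more libraries (5707 genes). Scaling used the trimmed mean of M values (TMM) without weights, trimming 30% of M and 5% of A values at either end; the factors were 0.715 to 0.891 for vehicle and 1.20 to 1.25 for edelfosine. Limma 3.58.1 in R 4.3.3 was fitted to log2(scaled TPM + 1), with 3 residual and 3.41 prior degrees of freedom. It was also run on simulated data in which far fewer genes changed than were called here, which cannot judge the choice of scaling. Fold changes on this scale understate those of low genes. The cascade genes, lists and tests were chosen with earlier results of these data known. Named genes were the 10 cascade genes, up to 4 called genes of smallest adjusted p per list and the 5 pheromone and receptor genes. Genes of the 5 ratios were also named, and the 3 genes outside all lists nearest to the cascade gene of smallest adjusted p. Others are marked. Alternatives covered scaling, filter, pseudocount, design, moderation and left-out libraries.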

Additional observations from a re-analysis of the deposited data

How the results depend on the processing

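Median-ratio, 30% trimmed mean and upper quartile scaling, no filter, pseudocounts of 0.1 and 5, no mean-variance trend and robust moderation each left 2 cascade genes called higher and 6 lower. TPM as deposited gave 4 higher and 2 lower, with 2837 higher and 760 lower of all genes. A minimum of 10 TPM in 3 libraries gave 1 and 3, because STE5, STE7, KSS1, STE12 and FAR1 were then not tested. Leaving out libraries, singly or as pairs, gave 0 to 2 higher and 3 to 6 lower cascade genes, and 987 to 1682 higher and 1038 to 1674 lower of all genes. Where this left 1 library in an arm, that library is assumed to vary like the others. Leaving out both libraries of a replicate ended the scaled call of FUS3 in every case. It ended that of GPA1, STE11, STE7, KSS1 or STE12 in some cases, and never that of STE4 or FAR1.

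The changes of STE5 without vehicle replicate 1 (-0.063; up to 0.067 without vehicle replicate 2) and without replicate 1 of both treatments (-0.038), and with TPM as deposited of FUS3 (0.043) and RAM1 (0.087), had the opposite sign; none of these passed. Between strains, 9 genes were called higher in BY4741 and 15 lower. The first count was 22 without a filter, 5 with at least 10 TPM and 5 with a pseudocount of 0.1. With libraries left out the counts ran from 0 to 124 and from 0 to 102 (37 and 48 without replicate 1 of both treatments), and no cascade gene was called in any of these. Uncalled strain differences near 0 turned sign: GPA1 with TPM as deposited (0.021), with upper quartile scaling (0.025) and over left-out libraries (-0.14 to 0.041, with -0.13 and 0.018 without edelfosine replicates 2 and 1); STE11 likewise (0.047, 0.060, and 0.0057 with at least 10 TPM; -0.25 to 0.24, with 0.035 without replicate 2 of both treatments); and STE18 (-0.33 to 0.17, with 0.073 without vehicle replicate 3 and -0.22 without edelfosine replicate 3), KSS1 (-0.51 to 0.029) and FAR1 (-0.21 to 0.065) over left-out libraries. The cause was not tested.

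The replicate block gave 2 cascade genes higher and 6 lower, with 1488 higher and 1529 lower of all genes, and of the named genes changed only the call of RAM1 (adjusted p = 0.0565). Same-numbered libraries correlated in their deviations from the group means by 0.332, 0.0518 and 0.510 in pairs 1, 2 and 3, so pair 2 did not pass 0.1 and the numbers were not taken to pair the cultures. In an exact sign-flip test over the 3 pairs, which cannot go below 0.25, all 5 ratios had p = 0.25. Plain TPM ratios with no pseudocount, an alternative chosen after seeing the data, changed the log2 differences to between -0.68 and 1.55, each within 1 SD of the value given, and every adjusted p over the 5 was then 0.2. Read depth is unknown, so no counting error can be set beside the low values of STE5, STE7, STE12 and FAR1.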
